A study of Mus musculus with 12 samples.

Results

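The heat shock chaperones followed here are 10 mouse genes that keep proteins folded: Hspa1a, Hspa1b, Hspa8, Hsph1, Dnajb1, Dnaja1, Hsp90aa1, Hsp90ab1, Hspe1 and Bag3. They were taken by symbol from 2 tables of expression values in sensory neurons of the dorsal root ganglia, and all 10 were found among the 13178 genes of the AAV table and among the 21650 genes of the ribose table. 6 of them are known chiefly as stress-inducible genes (Hspa1a, Hspa1b, Hsph1, Dnajb1, Hsp90aa1 and Bag3). The other 4 are abundant without stress (Hspa8, Hsp90ab1, Dnaja1 and Hspe1), although Dnaja1 and Hspe1 also respond to heat. In both tables all 10 passed the filter on low values, a mean of 1 FPKM or more. FPKM, a level per transcript length, counts fragments per kilobase and scales them to the library's mapped fragments.

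All mice were C57BL/6J animals of 8 weeks, and every library came from L4-6 sciatic ganglion neurons collected 72 h after spinal cord injury, so that each control group carried the injury too. In the AAV-TKT group an adeno-associated virus carrying transketolase (Tkt), an enzyme of the pentose phosphate pathway, had been injected through the sciatic nerve 4 weeks earlier. The AAV-GFP group had received the virus with green fluorescent protein in the same way. The Ribose group was treated with 10% ribose, a sugar that feeds the same pathway, and the Vehicle group with vehicle. Each of the 4 groups held 3 libraries. The viral promoter and serotype, the route of ribose and any pooling of animals are not stated in the labels. Whether the replicates of a group were separate animals is not stated either, so the p-values may reflect technical spread alone.

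HSP70 proteins bind exposed hydrophobic stretches of unfolded proteins in a cycle driven by ATP. J proteins such as Dnajb1 and Dnaja1 start that cycle, and exchange factors such as Hsph1 and Bag3 end it by releasing the nucleotide. HSP90 takes over partly folded clients, among them kinases and steroid receptors, and Hspe1 caps the HSP60 barrel of mitochondria. When unfolded protein accumulates, the transcription factor HSF1 binds heat shock elements, repeats of GAA units in alternating orientation, in front of the inducible genes. Injured sensory neurons rebuild much of their axonal protein, which makes the chaperone load of interest after injury.

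Hspa1a and Hspa1b are neighbouring copies without introns on the minus strand of chromosome 17. In GRCm38, Hspa1a (ENSMUSG00000091971) spans chr17:34969190-34972156 and Hspa1b (ENSMUSG00000090877) chr17:34956436-34959238, with 9951 bases between them. Their RefSeq promoters (GRCm38.p6) are printed because both genes gave the largest differences among the 10, and because the copies are so alike. Over the 300 bases around the start, from 250 before it to 50 after, 296 bases were equal (98.7%). The 4 differences were C44T, T47C, T249G and C276T, with the Hspa1a base first and positions counted from 1 at the 5′ end. The 250 bases before each start site follow, and the capitals mark the 8-letter heat shock element core, which sits at the same position in both.

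Hspa1a, chr17:34972157-34972406, minus strand: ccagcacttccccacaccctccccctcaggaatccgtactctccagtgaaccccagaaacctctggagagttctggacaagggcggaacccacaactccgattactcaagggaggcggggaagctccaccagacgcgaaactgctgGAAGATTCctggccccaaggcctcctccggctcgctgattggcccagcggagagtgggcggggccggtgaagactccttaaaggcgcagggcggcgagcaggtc

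Hspa1b, chr17:34959239-34959488, minus strand: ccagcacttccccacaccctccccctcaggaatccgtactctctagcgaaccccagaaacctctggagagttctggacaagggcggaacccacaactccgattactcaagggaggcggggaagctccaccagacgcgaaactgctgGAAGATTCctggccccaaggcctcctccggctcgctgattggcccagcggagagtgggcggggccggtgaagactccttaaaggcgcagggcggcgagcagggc

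RefSeq promoters were matched for 7 of the 10 genes. The core was searched as GAANNTTC or TTCNNGAA, each of which reads the same on both strands. These 7 genes had 11 promoters, and a gene was counted if any of its promoters held a match. The core was found in 6 of the 7, against 17.0% of the 27025 genes with a promoter, counted in the same way. Dnaja1 held it in the promoter at chr4:40722218-40722517 but not in its later ones. The longer form, GAANNTTCNNGAA or its reverse complement TTCNNGAANNTTC, contains overlapping copies of the core and was found in 2 of 7 (Hspe1 and Hsph1), against 0.662% of genes. The CCAAT box (CCAAT or ATTGG) was found in 5 of 7, against 41.1% of genes. Short windows around the matches of the other genes are given to show how the sites differ, with the match in capitals and its position counted from the start site.

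Hspe1, chr1:55088051-55088080, plus strand, match from -89: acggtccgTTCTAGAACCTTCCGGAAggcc

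Dnaja1, chr4:40722336-40722359, plus strand, match at -124: agcctctaGAAAATTCtacgaggc

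Hsph1, chr5:149636354-149636377, minus strand, match at -33: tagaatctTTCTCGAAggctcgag

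Hsph1, chr5:149636287-149636308, minus strand, match from 37: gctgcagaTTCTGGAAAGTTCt

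Bag3, chr7:128523617-128523632, plus strand, match at 43: tgggaccaGAAGTTTC

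The Dnajb1 windows held no match to either form, which says only that these letters are not in those windows. Hspa8, Hsp90aa1 and Hsp90ab1 had no entry. Each match is a description of the sequence and not a measured binding site.

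The deposited values were FPKM, and the number of reads behind each library is unknown. FPKM totals ran between 413635 and 456084 per library in the AAV table and between 510551 and 551370 in the ribose table. Tkt, which the virus delivers, lay between 222.6 and 261.9 FPKM in the AAV-TKT libraries, against 98.1 to 107 FPKM in the AAV-GFP libraries. Its log2 change of 1.27 had an adjusted p of 0.00540 in limma. All 14 neuronal markers, among them Rbfox3, Tubb3 and Scn10a, were present in both tables and at 0 in no library, with summed levels of 8076 to 10640 FPKM. Markers of satellite glia, Schwann cells, macrophages, neutrophils and red cells were present too, so the libraries were not of neurons alone. In bulk samples of this kind, fewer cells of a type and less RNA per cell cannot be told apart.

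Levels of the 10 genes spanned a wide range. In the AAV table, ranking all genes by mean FPKM put Hspa8 4th, Hsp90ab1 21st and Hsp90aa1 29th. Dnaja1 (560th), Bag3 (589th) and Hsph1 (718th) followed close together. Hspe1 (2649th), Hspa1b (3184th), Dnajb1 (3306th) and Hspa1a (4796th) came last. The ribose table kept the same 3 genes on top, with Hspa8 2nd, Hsp90ab1 25th and Hsp90aa1 44th, and Hspa1a (7056th) at the bottom. Hspa8, the constitutive HSP70 that also strips clathrin from synaptic vesicles, averaged 1651 ± 77.7 FPKM in AAV-TKT and 1572 ± 77.6 FPKM in AAV-GFP (SD, n = 3 each). Within a library the summed inducible copies Hspa1a and Hspa1b reached only 1.16% to 4.53% of the Hspa8 level. In the AAV table the ranges of neighbours in this order overlapped in at least 1 group, except between Hspa8 and Hsp90ab1, between Hsp90aa1 and Dnaja1, between Hsph1 and Hspe1 and between Dnajb1 and Hspa1a.

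**Figure D1:**
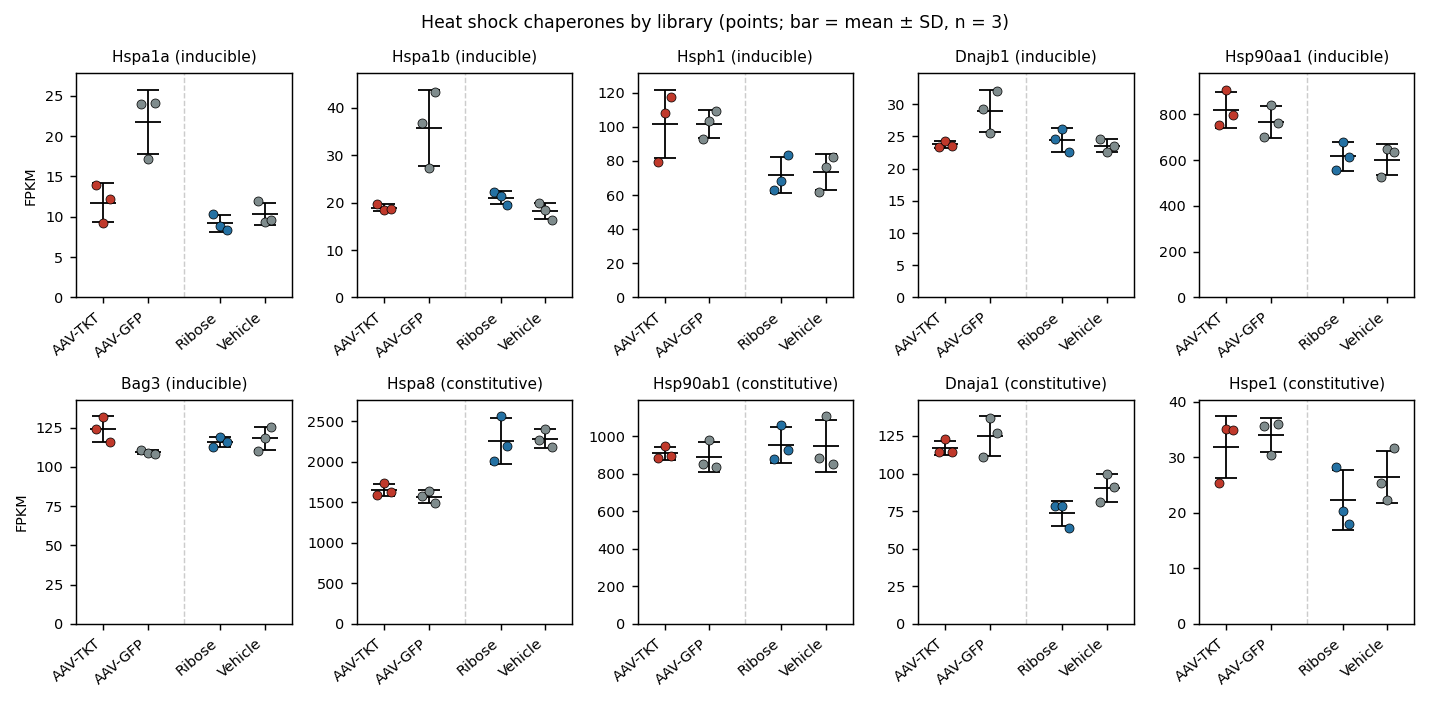
FPKM of the 10 chaperones (y axis, from 0) in each library (points), with the mean and SD of the 3 libraries of a group, for AAV-TKT and AAV-GFP left of the dashed line and Ribose and Vehicle right of it. Hspa1a and Hspa1b lie below the AAV-GFP libraries in all 3 AAV-TKT libraries, while Hsph1, Hsp90aa1, Hspa8, Hsp90ab1, Dnaja1 and Hspe1 overlap between AAV-TKT and AAV-GFP.

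The first comparison asked whether forced transketolase expression went with a different chaperone level in ganglia after spinal cord injury. Both copies of inducible HSP70 had about 0.5 times the AAV-GFP level in the AAV-TKT libraries, and Dnajb1, their J protein, was also lower in every AAV-TKT library. Bag3 was higher in every AAV-TKT library. HSP90, constitutive HSP70, Hsph1, Dnaja1 and Hspe1 overlapped between the groups. None of the 10 passed an adjusted p of 0.05 over the 13178 genes, where only 2 genes (0.0152%) did. An unadjusted p under 0.05 was reached by 3 of the 10 downwards (Hspa1b, Hspa1a and Dnajb1; 4.36% of all genes) and by 1 upwards (Bag3; 6.23% of all genes).

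Hspa1a encodes HSP70, the chaperone that rises most steeply after heat or proteotoxic stress in most mammalian cells. It measured 13.9, 9.20 and 12.2 FPKM in the AAV-TKT libraries, against 24.0, 17.2 and 24.1 FPKM in the AAV-GFP libraries. The highest AAV-TKT library thus stayed under the lowest AAV-GFP library, and the groups did not overlap. Mean levels were 11.8 ± 2.38 FPKM in AAV-TKT and 21.8 ± 3.95 FPKM in AAV-GFP (SD, n = 3 each), a ratio of 0.540. On the log2(FPKM + 1) scale the difference was -0.84 (SE 0.17, 95% interval -1.25 to -0.43), with an adjusted p of 0.333 in limma.

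Hspa1b, the second copy, encodes a protein almost the same as that of Hspa1a. It measured 19.8, 18.5 and 18.7 FPKM in the AAV-TKT libraries, against 36.8, 27.4 and 43.3 FPKM in the AAV-GFP libraries. The AAV-TKT libraries lay tightly together, whereas the AAV-GFP libraries were spread, with replicate 2 lowest as for Hspa1a. The means were 19.0 ± 0.692 FPKM in AAV-TKT and 35.8 ± 8.00 FPKM in AAV-GFP (SD, n = 3 each), a ratio of 0.530. The log2 difference was -0.86 (SE 0.15, 95% interval -1.21 to -0.50) with an adjusted p of 0.265 in limma, which put Hspa1b in place 31 and Hspa1a in place 63 of 13178 genes ordered by p. The call on Hspa1b turned on AAV-GFP replicate 2: without that library the difference was -1.03 with an adjusted p of 0.0140, and with libraries weighted by their fit it was -0.92 with an adjusted p of 0.0334. Over the 17 settings tried, the adjusted p in limma ran from 0.0140 to 0.570 for Hspa1b and from 0.0613 to 0.722 for Hspa1a. Both differences stayed below 0, but as the groups did not overlap, most of these settings could not have turned that sign.

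How reads were divided between the copies is not known. Of all 31-base words in the Hspa1a transcripts, 63.8% also occur in Hspa1b, and 67.6% of those of Hspa1b occur in Hspa1a, so the split is uncertain. The antisense gene Gm20481 overlaps 564 exon bases of Hspa1a, and whether the counting used strand is not stated. Summed within each library, the copies gave 33.7, 27.7 and 30.9 FPKM in AAV-TKT, against 60.8, 44.6 and 67.4 FPKM in AAV-GFP. The sum depends less on the split, but still on how shared reads were counted. It had a log2 difference of -0.87 (SE 0.15, 95% interval -1.22 to -0.51) and an adjusted p of 0.260 in limma.

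Dnajb1 (chr8:83608193-83612653, plus strand) encodes the heat-inducible HSP40 that hands clients to HSP70. It measured 23.4, 24.3 and 23.5 FPKM in AAV-TKT, against 29.3, 25.6 and 32.0 FPKM in AAV-GFP. Again the groups did not overlap and AAV-GFP replicate 2 was the lowest control. The difference was -0.27 on the log2 scale (SE 0.089, 95% interval -0.48 to -0.062), with an adjusted p of 0.412 in limma.

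Bag3 (chr7:128523616-128546981, plus strand), an exchange factor that also steers HSP70 clients to autophagy, ran the other way. It measured 124, 132 and 116 FPKM in AAV-TKT, against 111, 109 and 108 FPKM in AAV-GFP. The gap between the lowest AAV-TKT and the highest AAV-GFP library was small, and the log2 difference was 0.18 (SE 0.071, 95% interval 0.013 to 0.34) with an adjusted p of 0.451 in limma. Hsph1, the HSP110 exchange factor, measured 79.1, 108 and 117 FPKM in AAV-TKT and 92.7, 103.2 and 109.2 FPKM in AAV-GFP. Its AAV-TKT libraries spanned the whole AAV-GFP range, with a log2 difference of -0.018 (95% interval -0.36 to 0.33).

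HSP90 comes as the inducible Hsp90aa1 and the constitutive Hsp90ab1, both among the most abundant transcripts here. Hsp90aa1 measured 753, 908 and 798 FPKM in AAV-TKT, against 703, 842 and 762 FPKM in AAV-GFP. Hsp90ab1 measured 882, 949 and 894 FPKM in AAV-TKT, against 850, 982 and 837 FPKM in AAV-GFP. Both genes overlapped between the groups, and both had their highest value in replicate 2 of each group. The 95% intervals of the log2 difference were -0.17 to 0.35 for Hsp90aa1 and -0.20 to 0.26 for Hsp90ab1. Hspa8 gave 1591, 1739 and 1624 FPKM in AAV-TKT and 1584, 1643 and 1489 FPKM in AAV-GFP, with an interval of -0.16 to 0.30.

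The remaining constitutive genes also overlapped. Dnaja1, a J protein with broad clients, averaged 117 ± 4.81 FPKM in AAV-TKT and 125 ± 13.2 FPKM in AAV-GFP (SD, n = 3 each), with a log2 difference of -0.088 (95% interval -0.30 to 0.12). Hspe1 averaged 31.8 ± 5.61 FPKM in AAV-TKT and 34.0 ± 3.07 FPKM in AAV-GFP (SD, n = 3 each), with a log2 difference of -0.10 (95% interval -0.42 to 0.22). Hspd1, the HSP60 partner that shares a promoter region with Hspe1 on the opposite strand, averaged 111.7 ± 1.97 FPKM in AAV-TKT and 111.2 ± 4.88 FPKM in AAV-GFP (SD, n = 3 each). A gene that did not pass the test is not thereby shown to be equal, and the intervals give the sizes that these libraries allow.

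By class, the inducible genes did not lean one way together. Among the 6 inducible genes, 4 had a log2 difference below 0 and 2 above, with a median of -0.145. Among the 4 constitutive genes, 2 lay below and 2 above, with a median of -0.028, and the median over all 13178 genes was 0.014. Libraries did not overlap for 3 inducible genes downwards and 1 upwards, against 7.2% of all genes downwards and 11.3% upwards, and for 0 constitutive genes. Once Hspa1a and Hspa1b were counted as a single gene, the inducible median was -0.018, so that the class value rested on that locus.

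Ratios within a library compare the inducible with the constitutive form of a family and depend little on how the library was scaled. Shares are given from FPKM as deposited, and log2 differences of ratios from FPKM with a pseudocount of 1. The HSP70 ratio, Hspa1a plus Hspa1b over Hspa8, was 2.12%, 1.59% and 1.90% in AAV-TKT, against 3.84%, 2.71% and 4.53% in AAV-GFP. It did not overlap and differed by -0.94 on the log2 scale (exact two-sided permutation test p = 0.1, the smallest that 3 against 3 can give). For HSP90, Hsp90aa1 stood at 85.4%, 95.7% and 89.3% of Hsp90ab1 in AAV-TKT, against 82.7%, 85.8% and 91.0% in AAV-GFP, a log2 difference of 0.058 (exact permutation p = 0.5). The J protein ratio, Dnajb1 over Dnaja1, differed by -0.18 with overlapping groups (exact permutation p = 0.4). Adjusting over the 6 ratios of both experiments could not bring any of them under 0.05, since no single p could go below 0.1.

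**Figure D2:**
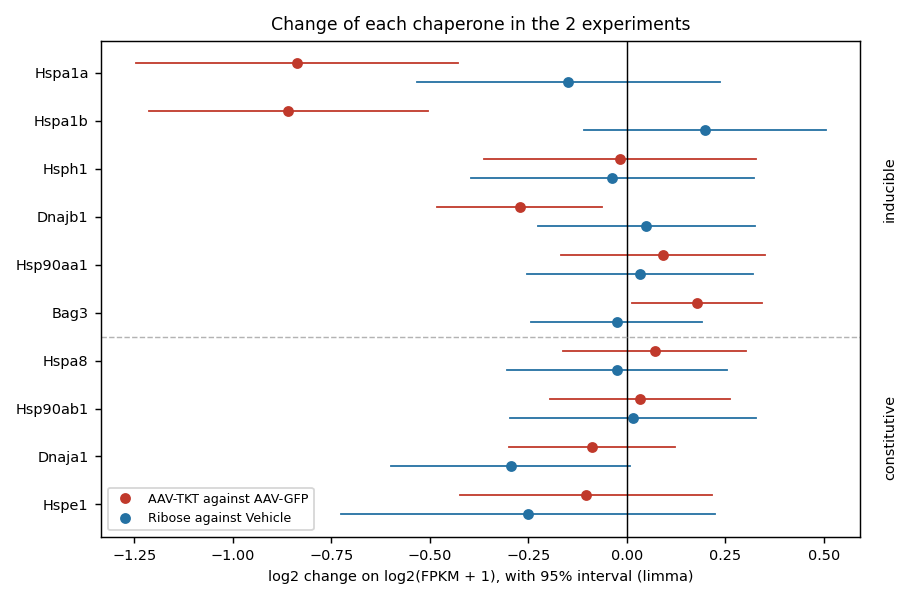
The log2 difference of each chaperone (x axis, on log2(FPKM + 1)) with its 95% interval from limma, for AAV-TKT against AAV-GFP in red and Ribose against Vehicle in blue, with inducible genes above the dashed line and constitutive genes below it. The AAV intervals of Hspa1a (-1.25 to -0.43) and Hspa1b (-1.21 to -0.50) lie apart from 0, and the ribose intervals of all 10 genes include 0.

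Other lists differed in level between the same libraries, and 0 of their genes passed the adjusted threshold. All 10 neutrophil markers, among them S100a8 and S100a9, were lower in every AAV-TKT library without overlap, against 7.2% of all genes. Their summed levels were 19.9 to 32.4 FPKM in AAV-TKT, against 97.2 to 263 FPKM in AAV-GFP. The 8 red-cell markers in the table summed to 83.8 to 106 FPKM in AAV-TKT, against 126.0 to 490 FPKM in AAV-GFP, and the 8 macrophage markers in the table (of 12) to 14.1 to 21.5 FPKM in AAV-TKT, against 40.2 to 54.5 FPKM in AAV-GFP. None of these markers was at 0 in any AAV library. AAV-GFP replicate 2, the control with the least Hspa1a, Hspa1b and Dnajb1, also had the lowest neutrophil and red-cell sums of its group, and AAV-GFP replicate 3, with the most Hspa1b, had the highest neutrophil, red-cell and macrophage sums. AAV-GFP replicate 2 was lowest in the macrophage sum too (40.2 FPKM) but not in the mean log2 level of the 8 markers, where its score of 0.309 lay above the 0.227 of replicate 1. Fibroblast and endothelial markers summed highest in AAV-GFP replicate 2 (55.0 FPKM). The order within AAV-TKT was mixed. AAV-TKT replicate 2 was lowest in Hspa1a plus Hspa1b (27.7 FPKM) and in the red-cell sum (83.8 FPKM). It was highest in the neutrophil sum (32.4 FPKM). AAV-TKT replicate 1, highest in Hspa1a plus Hspa1b (33.7 FPKM), was lowest in the neutrophil (19.9 FPKM) and macrophage (14.1 FPKM) sums. Neuronal markers summed to 9622 to 10640 FPKM in AAV-TKT, against 8076 to 9087 FPKM in AAV-GFP, a sum that the most abundant genes carry. Of the 14, 10 had a log2 difference above 0 (53.7% of all genes), 7 of them without overlap (11.3% of all genes upwards). The other 4 lay below 0, with Syt1 without overlap (7.2% of all genes downwards).

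The 20 immediate early genes, such as Fos, Jun and Egr1, which cells induce within minutes of many stimuli, summed to 332 to 481 FPKM in AAV-TKT and 398 to 486 FPKM in AAV-GFP. 19 of the 20 had a log2 difference below 0 (median -0.339), where 53.7% of all genes lay above 0, and 0 passed the adjusted threshold. Satellite glia markers summed to 735 to 1242 FPKM in AAV-TKT and 1085 to 1395 FPKM in AAV-GFP, and Schwann cell markers to 307 to 338 FPKM in AAV-TKT and 358 to 391 FPKM in AAV-GFP. The part of these other cells and of immediate early induction in the Hspa1a and Hspa1b difference was not tested.

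**Figure D3:**
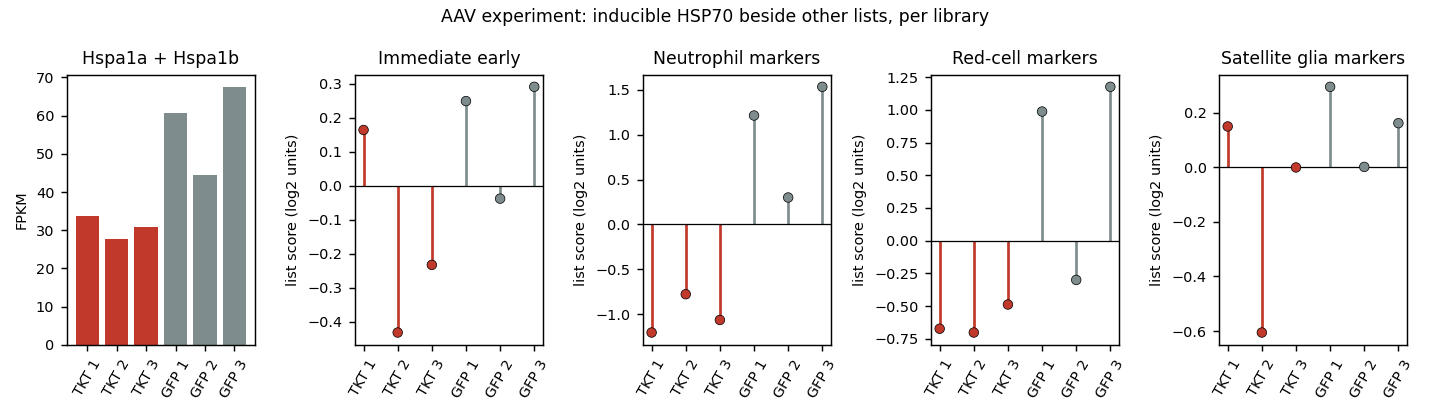
Summed FPKM of Hspa1a and Hspa1b (left, bars from 0) beside the score of 4 gene lists in the 6 AAV libraries, AAV-TKT in red and AAV-GFP in grey; a score is the mean over the list of log2(FPKM + 1) minus each gene's own mean over the 6 libraries. Hspa1a plus Hspa1b runs between 27.7 and 33.7 FPKM in AAV-TKT, under the 44.6 to 67.4 FPKM of AAV-GFP, and AAV-GFP replicate 2 is the lowest control in this sum and in the neutrophil (0.30) and red-cell (-0.30) scores. AAV-TKT replicate 2 is the lowest of its group in this sum and in the red-cell score (-0.702) but the highest in the neutrophil score (-0.778).

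In the rest of the chaperone network no gene tested had a log2 difference between the AAV groups as low as that of Hspa1a or Hspa1b. The 115 further chaperone and co-chaperone genes of the lists were described by those tested in the AAV table, of which 0 passed the adjusted threshold. 73 had a log2 difference above 0 and 31 below, with a median of 0.041 (53.7% of all genes lay above 0). This split hung on the scaling: with equal totals 43 lay above 0 and 61 below, when the share over all genes was 36.7%. With quantile normalization 58 lay above and 46 below (55.8% above), when the share over all genes was 54.9%. The libraries did not overlap for 17 of these genes upwards (11.3% of all genes) and 2 downwards (7.2% of all genes). An unadjusted p under 0.05 was reached by 9 upwards (6.23% of all genes) and 0 downwards (4.36% of all genes).

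Small heat shock proteins had the highest list median. Hspb1 (HSP27), which supports survival and axon growth of injured sensory neurons, averaged 377.5 ± 22.1 FPKM in AAV-TKT and 297.5 ± 25.0 FPKM in AAV-GFP (SD, n = 3 each), with a log2 difference of 0.34 and an adjusted p of 0.378 in limma. Hspb6 averaged 6.01 ± 0.066 FPKM in AAV-TKT and 4.50 ± 0.636 FPKM in AAV-GFP (SD, n = 3 each). Of the 5 small heat shock genes tested, 4 lay above 0, with a median of 0.278 that lay between 0.215 and 0.284 under the other scalings. It was 0.117 without AAV-GFP replicate 1, 0.158 when AAV-TKT replicate 3 was left out and 0.343 when replicate 1 was.

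The other lists held smaller differences. Among 15 HSP70 relatives and exchange factors (median 0.071), Bag6 gave 0.20 and Hspbp1, an HSP70 exchange factor, 0.21. Among 22 J proteins (median 0.058), Dnajb2, a neuronal J protein, gave 0.22 and Dnaja4 0.17. Among 15 HSP90 co-chaperones (median 0.042), Fkbp4, which binds HSP90 in steroid receptor complexes, averaged 143.9 ± 5.16 FPKM in AAV-TKT and 122.3 ± 3.48 FPKM in AAV-GFP (SD, n = 3 each). Its log2 difference was 0.23 with an adjusted p of 0.378 in limma, and the phosphatase Ppp5c gave 0.17. With equal totals the medians were 0.001 for the HSP70 relatives, -0.009 for the J proteins and -0.028 for the HSP90 co-chaperones, so their sign hung on the scaling. With single libraries left out they ran from 0.033 to 0.107 for the HSP70 relatives, from 0.035 to 0.084 for the J proteins and from 0.023 to 0.09 for the HSP90 co-chaperones.

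The 14 subunits of the cytosolic chaperonin CCT and of prefoldin, which fold actin and tubulin, had a median of 0.064, with 0.17 for Cct8 and 0.13 for Cct7. That median was -0.04 when AAV-TKT replicate 2 was left out, 0.144 when replicate 1 was and -0.004 with equal totals or quantile normalization. The 11 mitochondrial chaperones had a median of 0.007, with 0.12 for Dnaja3 and 0.16 for Grpel1, and it was -0.062 with equal totals, -0.017 with median-of-ratios scaling, -0.008 without AAV-GFP replicate 1 and -0.007 without AAV-TKT replicate 2. The 18 chaperones of the endoplasmic reticulum had a median of -0.029, with -0.15 for Dnajc3 and 0.15 for Sil1, and it was 0.031 without AAV-GFP replicate 2. The heat shock factor list also holds Hsbp1, a protein that binds HSF1 and is not itself such a factor. Of its 4 genes tested (median 0.046), Hsf4 gave 0.21 and Hsbp1 0.07. The median of this list was -0.022 with equal totals, -0.014 when AAV-TKT replicate 2 was left out and 0.105 when replicate 1 was. Hsf1, the master factor itself, averaged 12.1 ± 0.590 FPKM in AAV-TKT and 12.1 ± 1.05 FPKM in AAV-GFP (SD, n = 3 each). A transcript level says nothing of HSF1 activity, which is set largely on the protein.

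**Figure D4:**
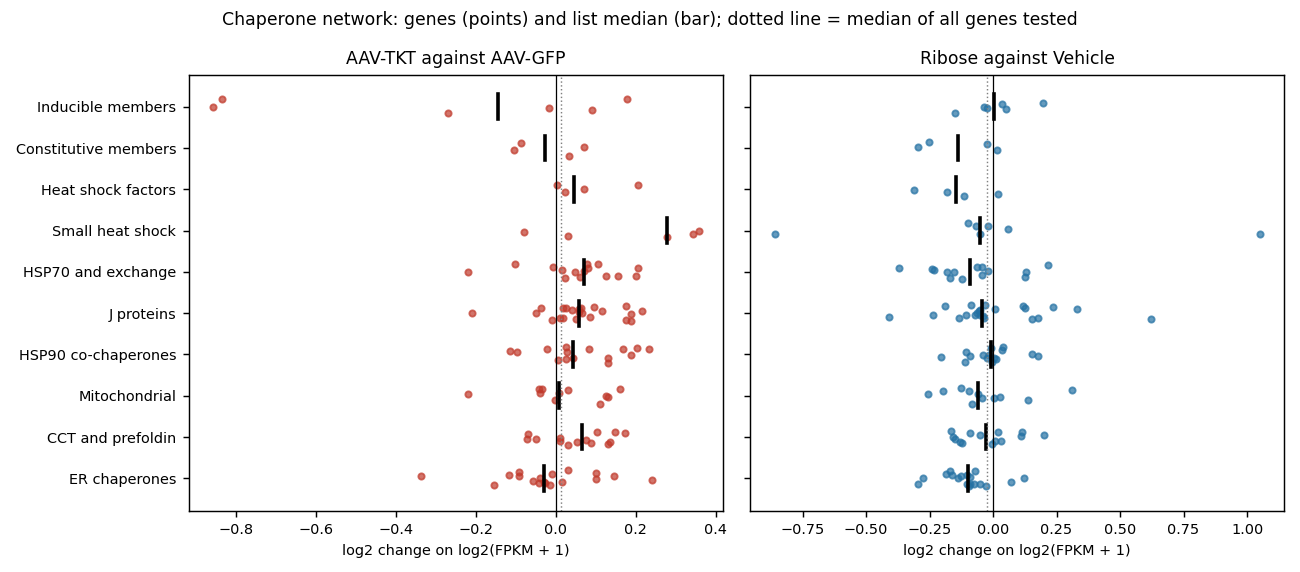
The log2 difference (x axis, on log2(FPKM + 1)) of each gene (points) and the median (black bar) of the 2 member classes and the 8 further chaperone lists, for AAV-TKT against AAV-GFP on the left and Ribose against Vehicle on the right, with the median of all genes tested as a dotted line. Hspa1a and Hspa1b stand apart on the left at -0.84 and -0.86, and the list medians lie between -0.145 and 0.278 there.

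The second comparison asked whether ribose went with a different chaperone level. None of the 10 genes passed the adjusted threshold in limma over 13804 genes, where 1 gene (0.00724%) did, and 0 of the 10 had an unadjusted p under 0.05, against 4.79% of all genes. Libraries were separated for Dnaja1 alone, downwards, against 5.35% of all genes downwards. 6 of the 10 lay below 0 and 4 above, with a median of -0.025, close to the -0.023 of all genes. The inducible median was 0.004 and the constitutive median -0.138.

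The inducible HSP70 copies, which differed most between the AAV groups, overlapped with their controls here. Hspa1a measured 10.4, 8.90 and 8.35 FPKM in Ribose, against 11.9, 9.41 and 9.64 FPKM in Vehicle. Hspa1b measured 22.2, 21.5 and 19.5 FPKM in Ribose, against 19.9, 18.4 and 16.4 FPKM in Vehicle. The copies leaned in opposite directions and both overlapped between the groups, with log2 differences of -0.15 (95% interval -0.53 to 0.24) and 0.20 (95% interval -0.11 to 0.50). Hspa1a made up 31.8%, 29.3% and 30.0% of the sum of both copies in Ribose, against 37.4%, 33.8% and 37.1% in Vehicle, a split that depends on how shared reads were assigned. The sum itself had a log2 difference of 0.082 (95% interval -0.22 to 0.38), and its share of Hspa8 was 1.62%, 1.18% and 1.27% in Ribose, against 1.40%, 1.16% and 1.19% in Vehicle (exact permutation p = 0.6).

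Dnaja1 measured 78.7, 78.2 and 63.8 FPKM in Ribose, against 80.9, 99.5 and 90.8 FPKM in Vehicle. All 3 Ribose libraries lay under the Vehicle libraries, though the nearest values differed by little. The log2 difference was -0.30 (SE 0.13, 95% interval -0.60 to 0.0072), with an adjusted p of 0.9998 in limma. Dnajb1, the inducible J protein, measured 24.6, 26.2 and 22.5 FPKM in Ribose, against 24.6, 22.5 and 23.6 FPKM in Vehicle. The ratio of Dnajb1 to Dnaja1 was accordingly 31.3%, 33.5% and 35.3% in Ribose, against 30.4%, 22.6% and 26.0% in Vehicle, without overlap (log2 difference 0.34, exact permutation p = 0.1).

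Hspe1 was among the more variable members, at 28.3, 20.4 and 18.0 FPKM in Ribose, against 25.3, 22.3 and 31.7 FPKM in Vehicle, with a log2 difference of -0.25 (95% interval -0.73 to 0.22). The abundant chaperones overlapped between the groups. Hspa8 averaged 2258 ± 281 FPKM in Ribose and 2287 ± 115 FPKM in Vehicle (SD, n = 3 each). Hsp90aa1 averaged 617 ± 61.5 FPKM in Ribose and 603 ± 67.0 FPKM in Vehicle, and Hsp90ab1 averaged 955 ± 94.9 FPKM in Ribose and 948 ± 139 FPKM in Vehicle (SD, n = 3 each). Both HSP90 genes and Hspa8 again peaked in replicate 2 of each group. Bag3 averaged 116 ± 3.24 FPKM in Ribose and 118 ± 7.42 FPKM in Vehicle, and Hsph1 averaged 71.7 ± 10.7 FPKM in Ribose and 73.6 ± 10.5 FPKM in Vehicle (SD, n = 3 each).

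Replicate 2 of each ribose group had the lowest satellite glia level of its group. Satellite glia markers summed to 322 to 1078 FPKM in Ribose, against 730 to 1746 FPKM in Vehicle, with replicate 2 at 322 FPKM in Ribose and at 730 FPKM in Vehicle. Both were also the lowest of their group in the fibroblast and endothelial sum (18.4 FPKM in Ribose, 36.6 FPKM in Vehicle). The same held for the immediate early sum (301 FPKM in Ribose, 349 FPKM in Vehicle). The 2 libraries were not alike in macrophage, neutrophil and red-cell markers. Ribose replicate 2 had the lowest macrophage (5.91 FPKM), neutrophil (12.3 FPKM) and red-cell (32.3 FPKM) sums of its group, whereas Vehicle replicate 2 had the highest of its group (40.6, 170.1 and 224.2 FPKM). Schwann cell sums were 394 to 413 FPKM in Ribose and 443 to 497 FPKM in Vehicle, with replicate 2 the lowest in Ribose and the highest in Vehicle. In the mean log2 level of the Schwann cell markers, replicate 2 had the lowest score in both groups (-0.655 in Ribose, -0.142 in Vehicle). 7 of the 12 macrophage markers, 1 of the 10 neutrophil markers (Retnlg) and 3 of the 9 red-cell markers were listed at 0 in at least 1 ribose library. Without both replicate 2 libraries, an omission chosen after seeing the data, 0 of the 10 chaperones passed the adjusted threshold, Dnaja1 had a log2 difference of -0.27 and Hspa1b of 0.19.

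Of the further chaperone genes tested in the ribose table, 0 passed. 32 lay above 0 and 73 below, with a median of -0.055 (55.2% of all genes lay below 0). With quantile normalization 47 lay above and 58 below (44.8% above), when 45.6% of all genes lay above 0. The libraries did not overlap for 2 of these genes upwards (4.28% of all genes) and 10 downwards (5.35% of all genes). Hsf1 was one of those 10, at 10.8 ± 1.57 FPKM in Ribose and 13.5 ± 0.479 FPKM in Vehicle (SD, n = 3 each), with a log2 difference of -0.31 and an adjusted p of 0.9998 in limma.

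The other named genes differed by sizes between 0.11 and 1.05 on the log2 scale, in both directions. Dnajc24, a J protein needed for diphthamide synthesis, averaged 8.27 ± 0.300 FPKM in Ribose and 5.05 ± 0.774 FPKM in Vehicle (SD, n = 3 each), a log2 difference of 0.62 with an adjusted p of 0.899 in limma. The exchange factor Bag5 gave -0.37, the ubiquitin ligase Stub1, which tags HSP70 clients, -0.23, the HSP90 co-chaperones Cdc37 and Ahsa1 -0.21 and -0.11, and the J protein Dnajc7 -0.19. Canx, a lectin chaperone of the endoplasmic reticulum, gave -0.17 and Dnajc3 -0.28, and 16 of the 18 chaperones of that compartment lay below 0 (9 of 18 without both replicate 2 libraries, 11 of 18 without Ribose replicate 2 alone and 15 of 18 without Vehicle replicate 2 alone). Hsbp1 (-0.18), Hspd1 (-0.13), Dnaja3 (0.14), Cct6a (-0.16) and Cct5 (-0.12) overlapped between the groups, as did the small heat shock genes Cryaa (1.05) and Hspb6 (-0.86), whose levels were under 10 FPKM.

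The 2 experiments share no samples, so their effects could be set against each other in a single limma fit over 12853 genes, in which 1 gene (0.00778%) passed. None of the 10 chaperones did. The difference of the effects, AAV-TKT minus AAV-GFP less Ribose minus Vehicle, was -1.06 for Hspa1b (SE 0.20, 95% interval -1.50 to -0.61, adjusted p 0.240), -0.69 for Hspa1a (SE 0.24, 95% interval -1.22 to -0.16, adjusted p 0.680) and -0.32 for Dnajb1 (SE 0.14, adjusted p 0.705). These 3 had an unadjusted p under 0.05 below 0, against 2.62% of all genes. For the summed copies it was -0.95 (95% interval -1.40 to -0.50, adjusted p 0.371). Without AAV-GFP replicate 2 the Hspa1b value was -1.23 with an adjusted p of 0.0507. Bag3 (0.20) and Dnaja1 (0.21) had intervals that included 0, and the other 5 genes lay between 0.017 and 0.147.

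Across the 12 libraries, each set against its own group mean, the inducible genes did not form a tight unit. Pearson's r with the mean of the 6 z-scored inducible genes was 0.80 for Dnajb1, 0.60 for Hspa1b, 0.44 for Bag3, 0.27 for Hsph1, 0.25 for Hsp90aa1 and only 0.12 for Hspa1a, each of which is part of that mean. The constitutive genes ran from -0.097 (Hsp90ab1) to 0.32 (Hspe1). The 5 other genes most like the inducible mean among 12843 compared were Bcl3 (0.91), Utp23 (0.91), Unc13d (0.90), Ash2l (0.89) and Atp5g3 (0.89). These are the highest of many values over 12 libraries of 2 tables, and they are given as a description.

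Copies elsewhere in the genome limit some of the levels. Of the 31-base words of Hsp90aa1, 51.4% also occur in other genes, chiefly the processed pseudogenes Gm12346 (46.7%) and Gm5844 (37.7%), and of those of Hspa8, 43.5%, chiefly Gm15459 (38.6%). In the ribose table these pseudogenes were nearly empty beside their parents, with 2.06 ± 1.02 FPKM of Gm15459 in Ribose and 1.74 ± 0.131 FPKM in Vehicle (SD, n = 3 each). The shares were 24.8% for Hspe1, 13.4% for Dnaja1, 13.2% for Hsp90ab1, 0.412% for Dnajb1 and 0% for Hsph1 and Bag3. Hspe1 also overlaps Hspd1 by 112 exon bases, Dnaja1 overlaps Smu1 and Gm6297, and Hspa8 holds the small nucleolar RNAs Snord14c, Snord14d and Snord14e.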

How the data were processed

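Polyadenylated RNA was made into directional libraries, per the labels' protocols. The submitters' processing notes name bcl2fastq 2.20, FastQC, Trim Galore and the GRCm38 build. No aligner, counter, strand setting or annotation release is given in the sources used here. The authors deposited FPKM in 1 table per experiment. The lowest gene mean in the AAV table was 1.00041 FPKM, so low genes are not in it. No read counts were given, so depth and the precision it sets are unknown.

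Identifiers were matched to symbols with the GENCODE M21 names (13170 of 13178 and 21612 of 21650). Groups were compared within each table on log2(FPKM + 1), keeping genes that averaged 1 FPKM or more, with limma 3.58.1 in R 4.3.3 (intensity trend, Benjamini-Hochberg threshold 0.05 over all genes tested). A fold on this scale understates the change of low genes. The difference of effects used all 12 libraries. Ratios within a library were compared with an exact two-sided permutation test (scipy 1.17.1). Shared 31-base words came from GENCODE M21 transcripts, and promoters from RefSeq (GRCm38.p6). The fit was tested on simulated data. The members and all lists were chosen with earlier results of these data known. Named genes were the 10 members, any gene of the chaperone lists past the threshold, the 2 genes of each list with the smallest p, and the 5 genes most alike. Tkt, Gm15459 and, in the AAV table, Hsf1 and Hspd1 fall outside this rule and were added for context. Alternatives were pseudocounts of 0.1 and 0.5, other filters, 3 scalings, a replicate block, library weights, summed copies and each library left out.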

Additional observations from a re-analysis of the deposited data

How the results depend on the processing

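In the AAV comparison the log2 differences of Hspa1a, Hspa1b and Dnajb1 stayed below 0 and that of Bag3 above 0 under all 17 settings, and in the ribose comparison those of Dnaja1 and Hspe1 stayed below 0 and that of Hspa1b above 0 under all 18. Leaving out each library in turn gave -0.991 to -0.684 for Hspa1a and -1.035 to -0.713 for Hspa1b between the AAV groups. With library weights Hspa1b passed at -0.916, and the number of members past the threshold was 1 there and between 0 and 1 with a library left out. It was 0 in every other AAV setting and in all ribose and difference settings.

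The number of genes past the threshold between the AAV groups, 2 as reported, was 5 with a pseudocount of 0.1, 4 with a mean of at least 5 FPKM, 4 with equal totals and 23 with library weights. Leaving out single libraries gave 3 to 41 (41 without AAV-GFP replicate 2, 5 without AAV-TKT replicate 2, 4 without AAV-GFP replicate 3). For ribose it was 2 with a pseudocount of 0.5, 2 with equal totals, 6 without both replicate 2 libraries and 1 to 4 with single libraries left out (4 without Ribose replicate 2, 3 without Ribose replicate 3, 2 without Vehicle replicate 2 or 3). For the difference of effects it was 2 with a pseudocount of 0.1 and 1 to 3 with single libraries left out (3 without Vehicle replicate 3 or Ribose replicate 2, 2 without Ribose replicate 3). Whether replicate numbers pair the samples could not be told from the correlations between libraries, which were mixed. Those with the same number correlated at 0.0326, 0.0707 and -0.0144 between the AAV groups and at 0.0418, 0.357 and 0.16 between the ribose groups. Ribose replicate 2 correlated at 0.357 with Vehicle replicate 2, against -0.181 and -0.239 with Vehicle replicates 1 and 3. With the replicate block 0 genes passed between the AAV groups, 1 between the ribose groups and 1 for the difference, and 0 members in each. Same-numbered libraries correlated best with each other for 1 of 3 AAV-TKT and 2 of 3 Ribose libraries.

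The AAV inducible median was -0.018 with summed copies and -0.198 to -0.055 with libraries left out. The AAV constitutive median was -0.098 with equal totals, -0.107 with quantile normalization and -0.06 to 0.05 with libraries left out. The ribose inducible median was 0.059 with quantile normalization and -0.056 to 0.05 with libraries left out. Signs turned for small differences only. Between the AAV groups this was so for Hsph1 (0.174 with weights, -0.131 to 0.151 with libraries left out), Hsp90aa1 (-0.005, quantile), Hspa8 (-0.068, quantile), Hsp90ab1 (-0.037 with equal totals, -0.034 quantile, -0.009 to 0.106 with libraries left out) and Hspe1 (-0.181 to 0.047 with libraries left out). Between the ribose groups it was so for Hsph1 (0.023 quantile, 0.023 without both replicate 2 libraries, -0.154 to 0.05 with libraries left out), Dnajb1 (-0.031 without both) and Bag3 (0.054 quantile, -0.073 to 0.017 with libraries left out). It was also so for Hspa8 (0.031 quantile, -0.12 to 0.054 with libraries left out), Hsp90aa1 (-0.062 to 0.106) and Hsp90ab1 (-0.063 to 0.133). Hspa1a on its own stayed between -0.228 and -0.05, while the summed copies stood at 0.082. The cause of these shifts was not tested. The log2 ratios moved by less than the replicate SD pooled over both groups in all settings tried, but 2 ribose ratios turned sign with libraries left out: Hspa1a plus Hspa1b over Hspa8 (-0.026 to 0.198) and Hsp90aa1 over Hsp90ab1 (-0.044 to 0.132). Dnajb1 over Dnaja1 between the AAV groups ran from -0.337 without AAV-GFP replicate 2 to -0.091 without AAV-GFP replicate 1. Without read counts, no limit on low values could be set.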
